A study of Mus musculus with 10 samples.

Results

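The Fos, Jun and small Maf genes encode basic leucine zipper transcription factors, and 9 of them, Fos, Fosb, Fosl2, Jun, Junb, Jund, Maff, Mafg and Mafk, were described here across 10 RNA sequencing libraries of mouse B cells. They were taken by name from the 17658 genes of the deposited table, and all 9 were found and passed the expression minimum (1 FPKM or more on average), which left 10225 genes to test. FPKM is fragments per length of transcript, scaled to library size, so levels can be set side by side between genes. The mice were C57BL/6 animals aged 10 weeks, either Nr4a1+/+ (wild type) or Nr4a1-/- (labelled knockout), and the labels do not describe the mutant allele further. The cells were B cells of spleen and lymph node, isolated by magnetic negative selection. One library of each genotype came from cells without stimulus, and 4 of each, lettered A to D, came from cells given 10 µg/mL anti-IgM for 2 hours, which crosslinks the antigen receptor on the cell surface. The unstimulated libraries are not labelled as kept for 2 hours, so effects of anti-IgM and of culture time cannot be told apart. A response to anti-IgM below means both together. The stated aim was a search for genes induced differently in the 2 genotypes. In bulk RNA, fewer cells of a type and less RNA per cell cannot be told apart. Nothing in the labels says whether a letter is a separate mouse or culture, so p-values measure the spread between these libraries, which may be technical.

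Proteins of the Fos group pair with proteins of the Jun group to form the dimers known as AP-1, which bind a short palindrome in DNA; Jun proteins can also pair with each other. Fos and Jun are classical immediate early genes, transcribed within minutes of receptor signalling through MAP kinases and then shut off again. The small Maf proteins carry no activation domain of their own, and act mainly as partners of the Bach repressors and of the cap'n'collar activators such as Nrf2. In B cells, Bach2 with a small Maf is known for holding back the plasma cell programme.

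Gene-level Nr4a1, the targeted gene, was present at high levels in the libraries of both labels. It stood at 126 FPKM in each unstimulated library, between 744 and 856 FPKM in the stimulated wild-type libraries and between 660 and 760 FPKM in the stimulated knockout-labelled libraries. It was called lower there (log2 difference -0.20, SE 0.0531, limma adjusted p = 0.0432, held in 10 of 20 alternatives), but its values overlapped between the labels (exact permutation p = 0.0571, two-sided), so directions below are between libraries as labelled. FPKM summed over all genes lay between 557214 and 571784 after anti-IgM and at 674961 (wild type) and 595500 (labelled knockout) without it. Relative sequencing depth, read from whole-fragment steps in the low values of 84 genes, ran from 0.915 to 1.06. Of the B cell markers, Cd79a lay between 469.1 and 1229 FPKM, Cd79b between 293.4 and 1595 FPKM, Ms4a1 between 215.2 and 555.5 FPKM and Pax5 between 53.2 and 135.4 FPKM over the 10 libraries, each lowest after anti-IgM, while the 6 T cell markers summed to 1.25 FPKM at most. The 7 myeloid markers, Lyz2 the highest of them, summed to between 40.4 and 140.8 FPKM in stimulated wild type and between 24.5 and 103.5 FPKM in the stimulated knockout-labelled libraries.

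By GENCODE M21 on GRCm38, the mm10 assembly that the submitters' processing notes name, Fos lies at chromosome 12, 85473890 to 85477273, and Fosb at chromosome 7, 19302696 to 19310051. Fosl2 (32135801 to 32157842) and Mafk (139791513 to 139802653) are both on chromosome 5. Jun is at chromosome 4, 95049034 to 95052222, Junb at chromosome 8, 84974484 to 84978718, and Jund at chromosome 8, 70698949 to 70700616. Maff is at chromosome 15, 79346621 to 79359076, and Mafg at chromosome 11, 120625117 to 120633600. The annotation places the antisense gene Gm11175 over 919 bases of Jund and the antisense gene Junos over 689 bases of Jun. Junb shares 351 bases with Prdx2, Mafk 169 with Tmem184a and Mafg 124 with Sirt7. Sirt7 lies on the same strand as Mafg, so strand could not separate reads from their shared bases. The other neighbours lie on the opposite strand, and whether strand was used in counting is not given in the sources used here. The values of these 5 genes may therefore hold reads of their neighbours.

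RefSeq start windows (250 bases before to 50 after the annotated start, GRCm38.p6) were at hand for all 9 genes, 11 windows in all because Maff has 3 annotated starts. Of these, 5 are printed, 5′ to 3′ on the gene's strand: Maff and Fosl2, which differed between the genotypes and rose with anti-IgM, Junb, the most abundant, and Fos and Jun, the best known members, which did not pass the stimulation test. Capitals mark the cyclic AMP response element TGACGTCA, its variant TGACATCA, the shorter TGACGC, the Egr motif GCGTGGGCG or GCGGGGGCG, and TATAAA.
Maff (second start, chr15:79347270-79347569, plus strand): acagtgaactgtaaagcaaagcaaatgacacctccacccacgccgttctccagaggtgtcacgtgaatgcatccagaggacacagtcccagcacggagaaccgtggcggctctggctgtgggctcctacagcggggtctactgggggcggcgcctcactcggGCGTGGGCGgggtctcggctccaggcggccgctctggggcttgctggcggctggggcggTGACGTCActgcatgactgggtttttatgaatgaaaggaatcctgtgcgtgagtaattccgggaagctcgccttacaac
Fosl2 (chr5:32136222-32136521, plus strand): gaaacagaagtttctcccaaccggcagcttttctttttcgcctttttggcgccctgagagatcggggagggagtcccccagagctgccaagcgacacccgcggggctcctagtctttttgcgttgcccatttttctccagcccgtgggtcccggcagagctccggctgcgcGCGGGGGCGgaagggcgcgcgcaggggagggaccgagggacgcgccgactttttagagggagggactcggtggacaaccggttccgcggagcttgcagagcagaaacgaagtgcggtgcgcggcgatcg
Junb (chr8:84978699-84978998, minus strand): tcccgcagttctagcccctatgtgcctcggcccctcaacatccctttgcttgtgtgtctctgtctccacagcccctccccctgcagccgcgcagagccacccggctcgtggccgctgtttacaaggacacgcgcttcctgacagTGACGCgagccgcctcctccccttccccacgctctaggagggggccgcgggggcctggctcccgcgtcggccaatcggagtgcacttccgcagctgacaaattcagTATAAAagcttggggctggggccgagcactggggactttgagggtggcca
Fos (chr12:85473640-85473939, plus strand): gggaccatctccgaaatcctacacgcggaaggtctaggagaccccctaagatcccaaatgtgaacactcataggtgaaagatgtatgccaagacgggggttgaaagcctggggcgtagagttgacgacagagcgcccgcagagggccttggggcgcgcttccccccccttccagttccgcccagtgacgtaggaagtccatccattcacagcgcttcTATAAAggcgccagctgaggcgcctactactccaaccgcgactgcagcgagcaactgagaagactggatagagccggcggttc
Jun (chr4:95052173-95052472, minus strand): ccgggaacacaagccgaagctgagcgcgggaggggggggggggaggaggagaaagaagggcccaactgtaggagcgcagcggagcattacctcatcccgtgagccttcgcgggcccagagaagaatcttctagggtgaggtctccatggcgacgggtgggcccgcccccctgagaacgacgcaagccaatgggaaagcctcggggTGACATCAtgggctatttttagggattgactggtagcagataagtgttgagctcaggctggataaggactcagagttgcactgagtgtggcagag

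Both strands were searched with overlaps allowed. The RefSeq window of Jund (chr8:70697489-70697788) ends before the GENCODE start of Jund given above (70698949), so the search did not cover that start. The window of Fosl2 begins after its GENCODE start (32135801). The full element TGACGTCA, from 29 to 22 bases before the second Maff start, was found in 1 of the 11 windows; 1.79% of 32841 windows of all genes hold it. The variant TGACATCA lay from 45 to 38 bases before the start in Jun and before the third start of Maff (3.62% of all windows). TGACGC was present in Fosb, Junb and Mafk (7.41%), and an Egr motif in Fosb, Fosl2, Maff and Mafk (3.47%). TATAAA began 33 bases before the start of Fos and at the annotated start of Junb (13.6%). The NF-kB consensus (not in capitals) matched in Fos, Fosb, Fosl2 and the third Maff window (4.51%). No window held the AP-1 site TGACTCA or TGAGTCA (5.2% of all windows) or a CArG box (1.63%), which says only that these letters are not in these 300 bases. A match is a description of the letters, not a binding site.

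After 2 hours of anti-IgM, the 3 small Maf genes and 2 Fos genes rose and no Jun gene passed. The call needed a limma adjusted p under 0.05 together with a 2-fold size (1 or more on the log2 scale), with 8 stimulated libraries set against 2 unstimulated ones and genotype as a term. It was met by 5 of the 9 genes in the upward direction (Maff, Fosl2, Mafk, Mafg and Fosb), where 7.94% of all tested genes were called higher. None of the 9 was called lower, where 12.4% of tested genes were. The median log2 shift was 1.23 over the 9 genes and -0.17 over all tested genes. With 1 unstimulated library per genotype, the replicate spread of unstimulated cells was not measured. The p-values for stimulus rest mainly on the spread of the stimulated libraries.

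**Figure D1:**
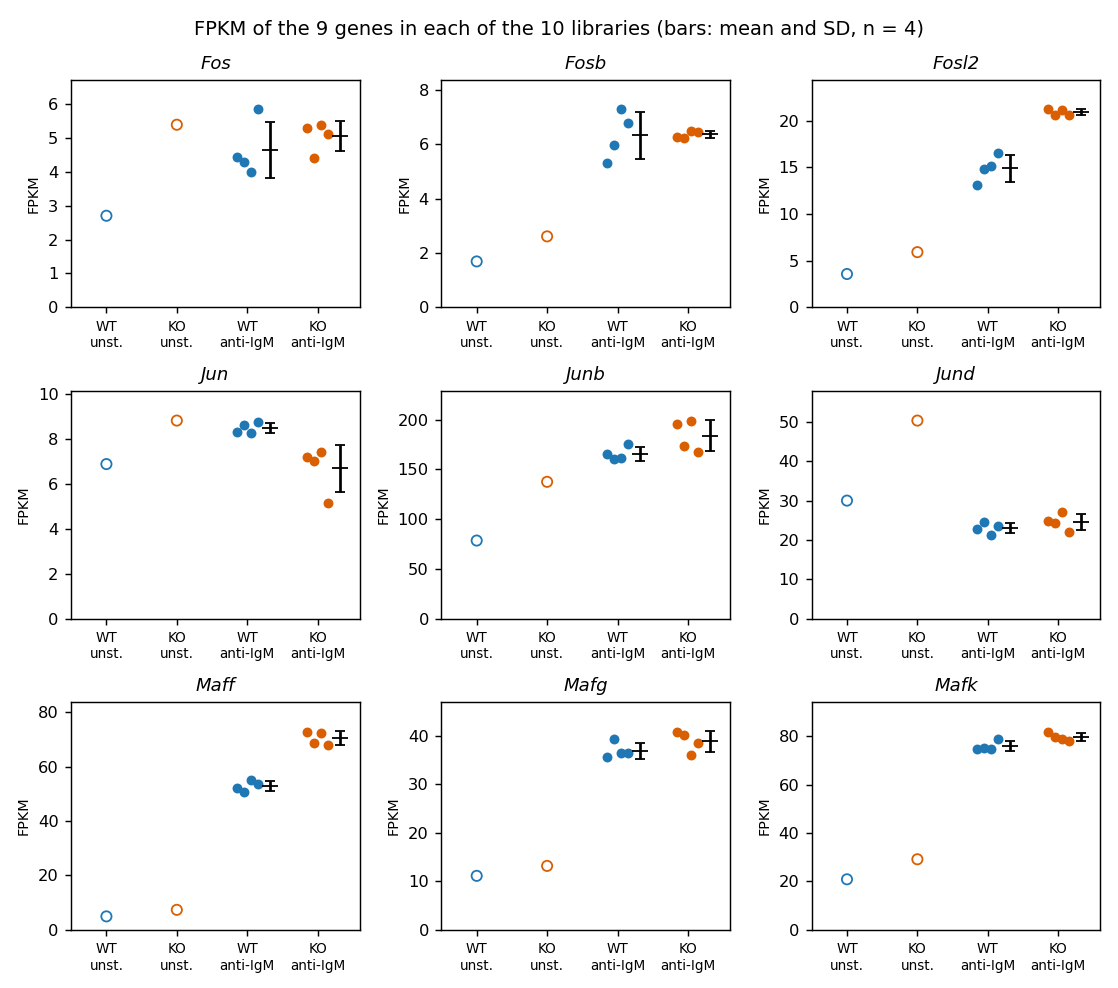
FPKM of each gene (vertical axis from 0, its own scale in each panel) in the 10 libraries; open circles are the single unstimulated libraries, filled circles the 4 anti-IgM libraries of wild type (WT, blue) and labelled knockout (KO, orange), and the bars beside them are the mean and SD. Maff goes from 4.91 and 7.32 FPKM to between 50.8 and 72.9 FPKM, while the Fos libraries lie between 2.70 and 5.83 FPKM with no separation by stimulus.

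Maff, a small Maf gene, had the largest response of the 9. It was at 4.91 FPKM in wild type without stimulus and at 52.2, 50.8, 55.2 and 53.5 FPKM in wild-type libraries A to D after anti-IgM. In the knockout-labelled libraries it went from 7.32 FPKM to 72.9, 68.6, 72.5 and 68.1 FPKM. All 8 stimulated libraries lay far above both unstimulated ones, and the 2 stimulated genotypes did not overlap. The rise was 10.8-fold in wild type and 9.63-fold in the knockout-labelled libraries, each against 1 unstimulated library, and the fitted log2 shift was 3.15 (SE 0.0459, limma adjusted p = 9.54e-12).

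Mafk and Mafg, the other small Maf genes, started higher and rose less. Mafk was at 20.9 and 29.2 FPKM without stimulus (wild type and labelled knockout) and at 74.9, 75.05, 74.9 and 79.0 FPKM in wild-type libraries A to D after anti-IgM, against 82.0, 79.6, 78.9 and 78.3 FPKM in the stimulated knockout-labelled libraries. Its log2 shift was 1.62 (SE 0.0706, limma adjusted p = 3.11e-09). Mafg went from 11.1 and 13.2 FPKM to between 35.6 and 39.3 FPKM in wild type and between 36.0 and 40.9 FPKM in the knockout-labelled libraries, a log2 shift of 1.57 (SE 0.0585, limma adjusted p = 9.57e-10). For both genes all stimulated libraries lay above the unstimulated ones, and the stimulated genotypes overlapped.

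Among the Fos genes, Fosl2, which encodes Fra-2, and Fosb rose, and Fos itself did not. Fosl2 was at 3.58 and 5.92 FPKM without stimulus. Its stimulated libraries A to D held 13.1, 14.8, 15.2 and 16.5 FPKM in wild type and 21.2, 20.6, 21.1 and 20.6 FPKM when labelled knockout, so every stimulated library lay above both unstimulated ones and every knockout-labelled library above every wild-type one. The log2 shift was 1.73 (SE 0.0707, limma adjusted p = 1.96e-09). Fosb, whose full-length and shortened protein forms cannot be separated in a gene-level table, went from 1.69 and 2.61 FPKM to between 5.31 and 7.27 FPKM in wild type and between 6.23 and 6.49 FPKM in the knockout-labelled libraries (log2 shift 1.23, SE 0.109, limma adjusted p = 1.06e-06). With a pseudocount of 5 the shift of Fosb was 0.67, under the size asked for.

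Fos was the lowest of the 9 genes at this time. It was at 2.70 FPKM in wild type without stimulus and at 4.43, 4.28, 3.98 and 5.83 FPKM in wild-type libraries A to D after anti-IgM. The unstimulated knockout-labelled library held 5.38 FPKM, above all 4 of its stimulated counterparts (5.28, 4.39, 5.36 and 5.11 FPKM). The log2 shift over both genotypes was 0.26 (SE 0.150, limma adjusted p = 0.140). Its estimate depended on which unstimulated library was used: it was 0.59 (limma adjusted p = 0.00700) without the unstimulated knockout-labelled library and -0.083 (limma adjusted p = 0.649) without the unstimulated wild-type one. It also depended on the scaling, at 0.40 (limma adjusted p = 0.0253) with median-of-ratios and 0.67 (limma adjusted p = 0.00136) with quantile scaling, each under the size asked for.

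The 3 Jun genes had values in different directions. Junb, by far the most abundant of the 9, was at 78.5 and 137.6 FPKM without stimulus, at 165.4, 160.0, 161.9 and 175.6 FPKM in wild-type libraries A to D after anti-IgM, and at 195.6, 173.8, 199.1 and 167.7 FPKM in the knockout-labelled ones. All 8 stimulated libraries were above both unstimulated ones, with a limma adjusted p of 0.000143, but the log2 shift of 0.74 (SE 0.119) was under the size asked for. Without the unstimulated knockout-labelled library it was 1.07 and met the call. Jund, the Jun gene usually found at steady levels in resting cells, was the only one of the 9 with every stimulated library below both unstimulated ones. It stood at 30.0 and 50.4 FPKM without stimulus, and after it at 22.8, 24.5, 21.3 and 23.5 FPKM (wild type) and 24.8, 24.4, 27.1 and 22.0 FPKM (labelled knockout). Its log2 shift was -0.69 (SE 0.119, limma adjusted p = 0.000256), also under the size asked for; it was -1.01 and met the call without the unstimulated wild-type library. Jun, at 6.89 and 8.83 FPKM without stimulus, lay between 8.27 and 8.75 FPKM in stimulated wild type and between 5.16 and 7.41 FPKM in the stimulated knockout-labelled libraries (log2 shift -0.048, SE 0.139, limma adjusted p = 0.762; above 0 under each of 3 other scalings).

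Ordered by level in stimulated wild type, the genes ran Junb, Mafk, Maff, Mafg, Jund, Fosl2, Jun, Fosb and Fos, from a mean of 165.7 ± 6.93 FPKM (SD, n = 4) for Junb to 4.63 ± 0.822 FPKM (SD, n = 4) for Fos. Neighbours in this order did not overlap, except Fosb and Fos. The order was the same in the stimulated knockout-labelled libraries, where Jun and Fosb overlapped and Fosb and Fos did not. These levels are fragments per length of transcript, scaled to library size, and say nothing of protein.

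The make-up of each family differed between unstimulated and stimulated libraries. Among the Jun genes, Junb made up 68.0% and 69.9% of the summed FPKM without stimulus (wild type and labelled knockout) and 84.0% ± 0.799 (SD, n = 4) and 85.5% ± 0.648 (SD, n = 4) after it. Jund went from 26.0% and 25.6% to 11.7% and 11.4%. Maff went from 13.3% and 14.7% of the small Maf sum to 31.9% ± 0.998 in wild type and 37.3% ± 0.992 in the knockout-labelled libraries (SD, n = 4 each), and Mafk from 56.6% and 58.7% to 45.8% and 42.1%. In the Fos family, with Fosl1 counted in, Fos went from 29.9% and 35.3% to 13.8% and 12.6%, and Fosl2 from 39.6% and 38.9% to 44.6% and 52.3%. After stimulus the Fosl2 share ranged from 43.2% to 45.5% in wild type and from 51.1% to 53.7% in the knockout-labelled libraries, without overlap. The summed FPKM of the small Maf genes was 4.49 times the unstimulated level in wild type and 3.81 times in the knockout-labelled libraries. The corresponding ratios were 3.69 and 2.62 for the Fos family and 1.71 and 1.09 for the Jun family. No test was run on shares or sums of the chosen genes.

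**Figure D2:**
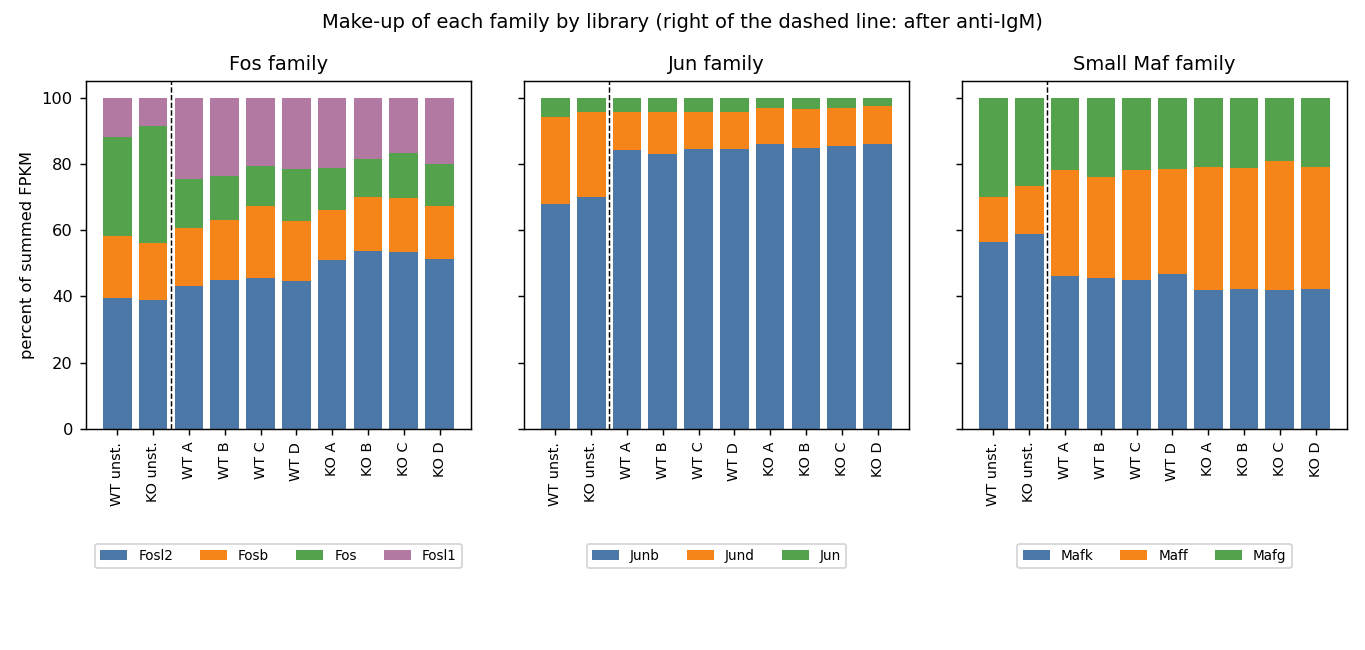
Share of each gene (vertical axis, percent) in the summed FPKM of its family in each of the 10 libraries; WT is wild type, KO labelled knockout, unst. unstimulated, and letters A to D the anti-IgM libraries. The Junb share lies at 68.0% and 69.9% without stimulus and between 82.8% and 86.1% after it, and the Maff share at 13.3% and 14.7% without stimulus and between 30.8% and 38.7% after it.

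Between the genotypes, the replicated comparison set the 4 stimulated knockout-labelled libraries against the 4 stimulated wild-type ones, and 2 of the 9 genes, Fosl2 and Maff, were higher in the knockout-labelled libraries. Among all tested genes 3.91% were called higher (limma adjusted p under 0.05). None of the 9 was called lower, where 5.81% of tested genes were. The 4 and 4 libraries did not overlap for 3 of the 9, Fosl2, Maff and Jun, where 15.5% of all tested genes had no overlap. The median log2 difference was 0.088 over the 9 genes and -0.024 over all tested genes.

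Fosl2 had means of 14.9 ± 1.41 (wild type) and 20.9 ± 0.325 FPKM (labelled knockout; SD, n = 4 each), 1.40 times the wild-type level. The log2 difference was 0.47 (SE 0.0591, limma adjusted p = 0.000988; two-sided exact permutation p = 0.0286, the smallest that 70 labellings can give). Maff had means of 52.9 ± 1.89 FPKM and 70.5 ± 2.51 FPKM (SD, n = 4 each), 1.33 times the wild-type level, with a log2 difference of 0.41 (SE 0.0347, limma adjusted p = 9.96e-05; exact permutation p = 0.0286). Each of the 2 genes was called in all 20 alternative fits run for this comparison. Both were also higher in the unstimulated knockout-labelled library than in its wild-type counterpart, by 0.60 for Fosl2 and 0.49 for Maff on the log2 scale.

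Jun went the other way, with means of 8.50 ± 0.229 (wild type) and 6.70 ± 1.04 FPKM (labelled knockout; SD, n = 4 each), and did not pass over all tested genes (log2 difference -0.31, SE 0.0924, limma adjusted p = 0.0686; exact permutation p = 0.0286). Knockout-labelled library D was far below the other 3, at 5.16 FPKM against 7.03 to 7.41 FPKM. Without it the difference was smaller, -0.21, and the limma adjusted p was 0.0278. The other 6 genes overlapped between genotypes. Their log2 differences were 0.15 for Junb (SE 0.0574, limma adjusted p = 0.163), 0.11 for Fos (limma adjusted p = 0.595), 0.088 for Jund (SE 0.0622, limma adjusted p = 0.462), 0.072 for Mafg (SE 0.0456, limma adjusted p = 0.409), 0.068 for Mafk (SE 0.0267, limma adjusted p = 0.169) and 0.012 for Fosb (SE 0.0796, limma adjusted p = 0.955). Cell type markers were set beside these values. The 4 plasma cell markers were Jchain (listed as Igj), Sdc1, Prdm1 and Xbp1. They summed to between 70.7 and 76.7 FPKM in stimulated wild type and between 77.1 and 94.7 FPKM in the knockout-labelled libraries, without overlap. Only Prdm1 was called higher between genotypes (means of 3.62 and 5.30 FPKM, wild type and labelled knockout), and it also rose with anti-IgM. Igj (22.8 and 30.8 FPKM) overlapped and was not called (limma adjusted p = 0.118). Xbp1 (40.5 and 42.1 FPKM) and Sdc1 (6.40 and 6.25 FPKM) were not called between genotypes either. The myeloid sums given above overlapped, with Lyz2 high in wild-type library B (115.0 FPKM) and knockout-labelled library B (82.6 FPKM) and at 15.8 to 53.0 FPKM in the other 6. Of the 4 NK cell markers found, only Klrd1 passed the expression minimum and could be tested. It was called lower in the knockout-labelled libraries, at 0.575 ± 0.295 FPKM against 1.365 ± 0.383 FPKM in wild type (SD, n = 4 each; log2 difference -0.59, limma adjusted p = 0.0456). The B cell marker Cd79b was also called lower there, at 304.0 ± 14.9 FPKM against 379.5 ± 10.7 FPKM (SD, n = 4 each; log2 difference -0.32, limma adjusted p = 0.00054). The part of these cells in the differences was not tested.

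**Figure D3:**
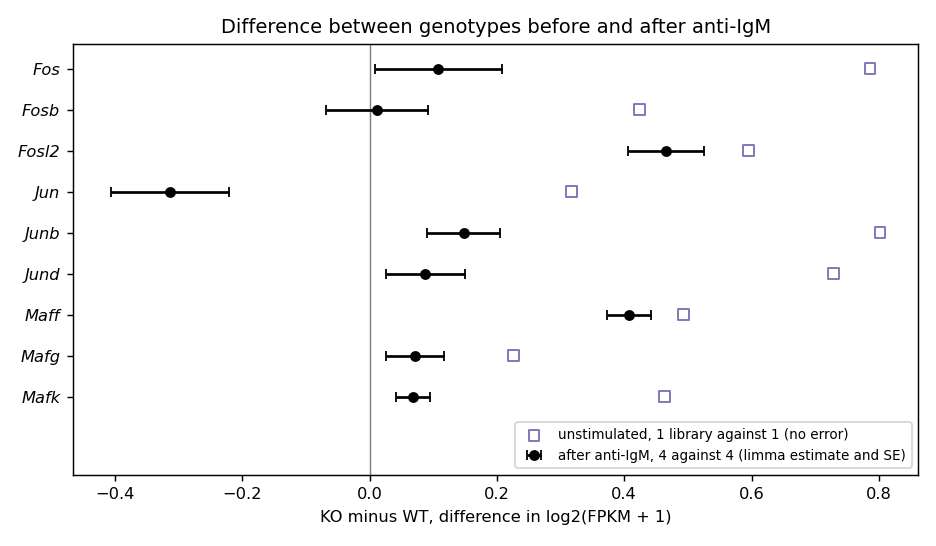
Difference between labelled knockout (KO) and wild type (WT) in log2(FPKM + 1) for each gene; black points with bars are the fitted difference after anti-IgM and its SE (4 libraries each), open squares the difference of the single unstimulated libraries, which have no error. All 9 open squares lie to the right of 0, between 0.23 and 0.80, and of the black points only Jun lies to the left, at -0.31.

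Without stimulus, all 9 genes were higher in the single knockout-labelled library than in the single wild-type library. Of all tested genes 59.2% were higher there, and the median log2 difference was 0.067 with an SD over genes of 0.38. The log2 difference was 0.80 for Junb, 0.79 for Fos and 0.73 for Jund, and it was 0.32 for Jun and 0.23 for Mafg at the low end. These pairs of single libraries have no replicate check. The 6 heat shock genes, which like Fos and Jun can respond to cell handling, summed to 1074 FPKM in wild type without stimulus and 1032 FPKM in the library labelled knockout, and to between 1975 and 2236 FPKM after anti-IgM; 1 of the 6, Hspa8, was called with stimulus and none between genotypes (median log2 shift 0.55 and 0.030). Hspa8 and Hsp90aa1 made up most of that sum, and both were lower in the unstimulated knockout-labelled library. Hspa8 was at 740.4 FPKM in the wild-type library and 733.9 FPKM in the knockout-labelled one, and Hsp90aa1 at 273.0 and 228.0 FPKM. The other 4 were higher in the unstimulated knockout-labelled library. Hspa1a, which is strongly stress-inducible, was at 4.34 and 7.37 FPKM and Hspa1b at 4.96 and 6.86 FPKM. Hsph1 was at 25.1 and 28.1 FPKM and Dnajb1 at 26.5 and 28.2 FPKM. The part of handling in the higher unstimulated values was not tested.

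The difference in response between genotypes was tested in 1 model over 4 groups, in which each lone unstimulated library is assumed to vary like the stimulated ones. The estimate was below 0 for all 9 genes, meaning a gene moved less far up or further down in the knockout-labelled libraries, as it was for 63.8% of all tested genes. It passed for 3 of the 9, Junb, Jund and Mafk, where 14.7% of tested genes were called with an estimate below 0. For Junb the response was 1.07 in wild type and 0.41 in the knockout-labelled libraries on the log2 scale, a difference of -0.65 (SE 0.128, limma adjusted p = 0.00897). For Jund, whose level went down, the responses were -0.37 and -1.01, a difference of -0.64 (SE 0.139, limma adjusted p = 0.0134). For Mafk they were 1.81 and 1.42, a difference of -0.40 (SE 0.0609, limma adjusted p = 0.00383). Each of these 3 calls held in all 19 alternative fits run for it. None of those fits left out an unstimulated library, so they cannot show how far the calls rest on the unstimulated libraries. In the unstimulated pair, 1 library each, these genes differed between genotypes by 0.80, 0.73 and 0.46, and after anti-IgM by 0.15, 0.088 and 0.068.

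**Figure D4:**
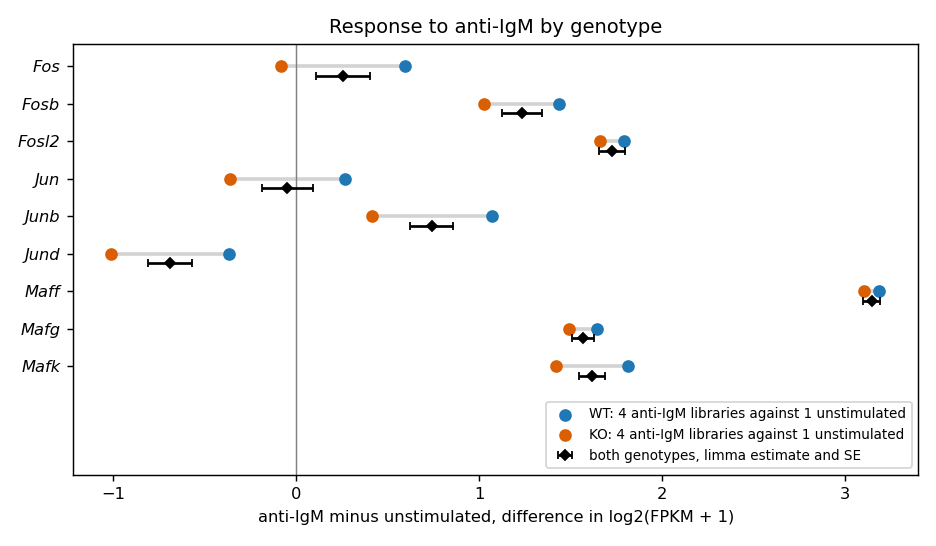
Response to anti-IgM of each gene as a difference in log2(FPKM + 1); blue and orange circles are wild type (WT) and labelled knockout (KO), each 4 anti-IgM libraries against 1 unstimulated library, and black diamonds with bars are the fit over both genotypes with its SE. The orange circle lies left of the blue one for all 9 genes, most for Fos (-0.68) and least for Maff (-0.086).

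For Fos the estimated difference in response was -0.68 (SE 0.226, limma adjusted p = 0.0655) and for Jun -0.63 (SE 0.207, limma adjusted p = 0.0623), and neither passed. Fos passed without wild-type library D (-0.58, limma adjusted p = 0.0413) and Jun without knockout-labelled library D (-0.53, limma adjusted p = 0.0107), and both passed with TPM or robust estimation. Fosb was at -0.41 (SE 0.181, limma adjusted p = 0.147). Mafg (-0.15), Fosl2 (-0.13) and Maff (-0.086) had limma adjusted p of 0.341 or more. For Maff and Fosl2, the 2 genes called higher after anti-IgM in the knockout-labelled libraries, the estimate turned positive with a pseudocount of 5 (0.069 and 0.034), so their direction depends on the pseudocount.

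Among themselves the 9 genes were unevenly steady between replicates. The SD of log2(FPKM + 1) pooled over the stimulated genotypes was 0.0335 for Mafk and 0.0506 for Maff at the low end and 0.161 for Fos and 0.150 for Jun at the high end. Over the 8 stimulated libraries, with each genotype's mean taken off, the deviations of Jun and Jund (Pearson r = 0.81), Fosb and Fosl2 (0.79), Jun and Junb (0.74) and Junb and Maff (0.71) were most alike among the 36 pairs, and those of Maff and Mafg (-0.36) least. Genes of 1 library share its depth and handling, so these values are descriptions. Over all 10 libraries, the genes outside the 9 with the most similar profile were Cdk5r1, Dusp2 and Klf10 for Maff (Pearson r of 0.999 or more), Git1, Champ1 and Usp36 for Mafk, and H13, Ipmk and Kcnh4 for Mafg (0.997 to 0.999 for these 6). They included Il2rg and Pik3ap1 for Fosl2 (0.994 to 0.995), and were Pptc7, Usp39 and D10Wsu102e for Fosb (0.988 to 0.993), Tgfb1, Irf5 and Zc3h10 for Junb (0.986 to 0.996) and Arl2bp, Rhog and Gltp for Jund (0.979 to 0.985). For Fos they were Ppp1r10, Sidt2 and Pnpla2 (0.924 to 0.973) and for Jun Mrps26, Pura and Pfkfb3 (0.864 to 0.926). The 7675 other genes averaging 5 FPKM or more were searched.

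The partners of these factors were read from lists chosen by function. Of 9 other genes whose products pair with or compete with Fos and Jun, 7 were expressed enough to test, and 3 rose with anti-IgM: Fosl1 (Fra-1), Batf and Atf4. Fosl1 went from 1.07 and 1.32 FPKM to 7.54 ± 0.445 and 7.66 ± 0.956 FPKM (SD, n = 4 each; log2 shift 1.97, SE 0.0926, limma adjusted p = 5.51e-09), so it came to exceed Fos. After stimulus Batf, which pairs with Jun proteins and has no activation domain, had means of 55.1 ± 3.07 (wild type) and 95.2 ± 5.35 FPKM (labelled knockout; SD, n = 4 each; log2 difference 0.78, limma adjusted p = 2.06e-05). Batf also had a larger response in the knockout-labelled libraries, by 0.68 (SE 0.110, limma adjusted p = 0.00442), opposite in sign to all 9. Atf4 was higher by 0.11 in the knockout-labelled libraries (limma adjusted p = 0.0495), a call that held in 7 of 20 alternatives. The median log2 shift of the 7 was 0.98 with stimulus and 0.070 between genotypes. Atf3 (0.98, called in 7 of 21 alternatives), Jdp2 (0.41), Atf7 (0.35) and Atf2 (0.056) were under the size asked for.

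Of 10 genes for small Maf partners and large Maf factors, 9 were found and 5 tested, and 2 rose: Bach1, a repressor of antioxidant genes, and Nfe2l1. Bach1 went from 10.8 and 12.8 FPKM to 30.6 ± 0.666 and 37.5 ± 1.42 FPKM (SD, n = 4 each; log2 shift 1.45, SE 0.0436, limma adjusted p = 2.33e-10) and was higher in the knockout-labelled libraries by 0.29 (SE 0.0333, limma adjusted p = 0.000593). The medians of the 5 were 0.14 with stimulus and 0.088 between genotypes. Nfe2l1 (log2 shift 1.14, but 0.95 and not called without the unstimulated wild-type library) differed between genotypes by 0.088 (limma adjusted p = 0.0441), a call that held in 10 of 20 alternatives. Bach2 (-0.20) and Nfe2l2, which encodes Nrf2 (0.14), were under the size asked for and did not pass between genotypes. Of 11 genes known to carry antioxidant elements, 8 were tested and 2 rose, Gclc (1.24) and Txnrd1 (1.33), with medians of 0.23 with stimulus and 0.014 between genotypes. Srxn1, with means of 2.79 ± 0.528 (wild type) and 1.43 ± 0.428 FPKM (labelled knockout; SD, n = 4 each), was the 1 called between genotypes (log2 difference -0.65, limma adjusted p = 0.0220), a call that held in 14 of 19 alternatives.

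Upstream, 23 of 24 kinase, exchange factor and SRF-side genes were tested. Map2k3, a p38 activating kinase, rose (log2 shift 1.58), and 6 fell: Rasgrp3, Mapk9, Mapk14, Elk3, Mkl1 and Mef2c. The calls of Rasgrp3, Mapk14 and Mkl1 held in all 21 alternatives. That of Mapk9 was lost in 4 (a pseudocount of 5 and all 3 other scalings), that of Mef2c with median-of-ratios scaling, and that of Elk3 in 3 (a pseudocount of 5, quantile scaling, and without the unstimulated knockout-labelled library). The medians of the 23 were -0.24 with stimulus and -0.048 between genotypes. Between genotypes 4 were higher in the knockout-labelled libraries (Rasgrp3, Map2k3, Creb1 and Mef2d), and Elk4 and Mkl1 were lower. The calls of Rasgrp3, Map2k3 and Elk4 held in all 20 alternatives, those of Creb1 and Mef2d in 10 and that of Mkl1 in 7. Srf, which drives Fos transcription together with Elk factors, went from 12.1 and 15.4 FPKM to 20.8 ± 1.35 and 19.9 ± 0.498 FPKM (SD, n = 4 each; log2 shift 0.54). None of 7 genes for turnover of immediate early transcripts and proteins was called with stimulus, and their medians were -0.14 with stimulus and 0.0020 between genotypes. Between genotypes after anti-IgM, Zfp36, which encodes an mRNA decay factor, was lower in the knockout-labelled libraries, at 162.4 ± 4.76 FPKM against 188.3 ± 3.16 FPKM in wild type (SD, n = 4 each; log2 difference -0.21, SE 0.0261, limma adjusted p = 0.000804). Without stimulus Zfp36 was at 131.3 FPKM in the wild-type library and 187.1 FPKM in the knockout-labelled one. Its difference in response was -0.72 (limma adjusted p = 0.000498, called in all 19 alternatives, all of which kept both unstimulated libraries). After anti-IgM its relative Zfp36l1 was higher in the knockout-labelled libraries, at 389.8 ± 5.22 FPKM against 347.2 ± 6.01 FPKM in wild type (SD, n = 4 each; log2 difference 0.17, SE 0.0213, limma adjusted p = 0.00104).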

How the data were processed

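The authors deposited 1 table of FPKM per gene for the 10 libraries, made with STAR 2.4 and RSEM 1.2.14 on mm10, per the submitters' processing notes; annotation, filters and strand setting are not given in the sources used here. Libraries came from a stranded mRNA kit, per the labels' protocols. Each column matched 1 sample's description. Values were used as log2(FPKM + 1), which understates changes of low genes. Genes averaging 1 FPKM or more were tested with limma 3.58.1 in R 4.3.3 (lmFit, eBayes with trend, two-sided, Benjamini-Hochberg over all 10225 genes): stimulus over 10 libraries with genotype as a term, genotype over the 8 stimulated libraries, and the difference in response over 4 groups. FPKM hold no totals, so absolute depth is unknown and no count model was used. All fits were tested on simulated data in which every library, the unstimulated ones included, was given noise of the same size. Those simulations therefore cannot check whether the lone unstimulated libraries vary like the stimulated ones. The genes, lists and tests were chosen with earlier results of these data known. Named genes are the 9, genes of the lists, and per gene the 3 most correlated profiles. Some genes that meet this rule are left out of the text.

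The marker and pathway lists were matched by symbol, older symbols through RefSeq GRCm38.p6 synonyms; Nrl, Ighm, Ncr1, Hba-a1 and Hbb-b1 were not matched. NK cell markers summed to 2.64 FPKM and erythroid markers to 0.68 FPKM at most in any library. Alternatives covered pseudocounts of 0.1 and 5, the expression minimum, TPM, median-of-ratios and quantile scaling, eBayes settings, array weights, the letter as a block, all 10 libraries, and each library left out. The unstimulated libraries were left out only in the stimulus comparison.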

Additional observations from a re-analysis of the deposited data

Results flagged for a closer look

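Jun in knockout-labelled library D, at 5.16 FPKM, stood far from the other 3 libraries of its group (7.03 to 7.41 FPKM), and Mafk in wild-type library D, at 79.04 FPKM, from the other 3 (74.91 to 75.05 FPKM). The 18 groups of 4 libraries (9 genes in 2 genotypes) were searched, and chance gives about 1 such case in 20 groups. The response to anti-IgM differed between genotypes by a test of the difference itself for Junb (-0.65), Jund (-0.64) and Mafk (-0.40) on the log2 scale. Those differences rest on 1 unstimulated library per genotype.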

How the results depend on the processing

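The 537 refits of single genes covered 9 genes, 3 comparisons and 22 alternative settings, with at most 21 for any 1 comparison. Of these refits, 515 kept direction and call, 11 gained a call, 1 lost it and 10 changed sign. The cause of these changes was not tested. The loss was Fosb with stimulus at a pseudocount of 5, where 0.67 fell short of the size asked for. The number of genes called higher with stimulus was 4 to 6 over the alternatives; between genotypes it was 2, or 3 with robust eBayes and without knockout-labelled library D, where Jun joined. The number called lower with stimulus ran from 0 to 1 when libraries were left out, Jund being called without the unstimulated wild-type library. The number whose response differed was 5 rather than 3 with TPM and with robust eBayes, where Fos and Jun joined. It was 4 with an expression minimum of 5 FPKM and without knockout-labelled library D, where Jun joined. It was also 4 without wild-type library D, where Fos joined. Sign changes with stimulus were those of Jun (0.095 with TPM, 0.11 with median-of-ratios, 0.29 with quantile scaling, 0.27 without the unstimulated knockout-labelled library, 0.012 without knockout-labelled library D; range -0.36 to 0.27 when libraries were left out) and Fos (-0.083 without the unstimulated wild-type library; range -0.083 to 0.59 when libraries were left out, and 0.67 with quantile scaling). Between genotypes Fosb turned to -0.057 without wild-type library A and -0.0096 without B (range -0.057 to 0.073). In the difference in response, Fosl2 (0.034) and Maff (0.069) turned at a pseudocount of 5. The median change of all genes with stimulus, -0.17 as deposited, was -0.029 with TPM, -0.017 with median-of-ratios and 0.0043 with quantile scaling, and that of the difference in response, -0.096 as deposited, was -0.25 with TPM. No pairing by letter was seen among the stimulated libraries: correlations of same-letter deviations ran from -0.12 to 0.045, and 1 of 8 libraries correlated best with its own letter. A lack of correlation cannot show that libraries of the same letter share no mouse, culture or day. With the letter as a replicate block the same number of the 9 genes was called between genotypes (2), and 740 genes in all rather than 994. Absolute depth is unknown, so the counting error of Fos, Fosb and Jun, the lowest of the 9, cannot be given.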
